A study of Mus musculus with 9 samples.

Results

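Transcripts of the enzymes that write, copy and remove DNA methylation were followed in αTC1 cells, a mouse pancreatic line that makes glucagon. Of the 9 libraries 4 came from cells given 4 µM EPZ011989 for 7 days and 5 from cells given the solvent DMSO for as long. EPZ011989 inhibits EZH2, the catalytic subunit of Polycomb repressive complex 2, which methylates lysine 27 of histone H3. Both groups were grown in the same low-glucose medium with serum, and the titles mark the libraries as biological replicates ("biol rep") without mentioning separate cultures, so the error behind each p-value is that between libraries and may be technical. αTC1 is a single transformed, dividing line, so the levels describe cycling cells. The 7 members were chosen by symbol from the 33212 rows of the count table. They were the DNA methyltransferase genes Dnmt1, Dnmt3a and Dnmt3b, the cofactor gene Uhrf1, and the dioxygenase genes Tet1, Tet2 and Tet3. All 7 passed the filter on low counts and were among 14754 genes tested.

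DNA methylation in mammals sits mostly on the cytosine of CpG dinucleotides. DNMT3A and DNMT3B place it on unmethylated DNA, whereas UHRF1 binds the hemimethylated CpGs left behind by replication and recruits DNMT1, which copies the mark onto the new strand. TET1, TET2 and TET3 oxidise 5-methylcytosine to 5-hydroxymethylcytosine and further, using iron and 2-oxoglutarate, which leads to loss of the mark by base excision or by dilution over divisions. Silent developmental genes in many cell types carry either Polycomb-dependent histone methylation or DNA methylation. DNA methylation itself was not measured here.

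Uhrf1 and Dnmt3b rose with EPZ011989, and the other 5 members did not pass the test. Uhrf1 was 1.18-fold and Dnmt3b 1.61-fold higher, and for both every EPZ011989 library lay above every DMSO library. This is 2 of 7 members, where 16.2% of all tested genes were called higher and 16.1% lay above DMSO without overlap (8.77% below it), so a count this small is not set apart from the background. The median log2 fold change of the 7 members was 0.24, against 0.03 over all tested genes. The start sites of these 2 genes are shown because they are the members whose transcripts changed. The sequences are the 250 bases before each start site that RefSeq gives on GRCm38.p6, on the plus strand, with capitals marking TTTCGCGC (a form of the E2F site), CCAAT (the NF-Y box) and GGGCGG (the GC box), each searched on both strands.
Uhrf1, first start site, chr17:56303087-56303336: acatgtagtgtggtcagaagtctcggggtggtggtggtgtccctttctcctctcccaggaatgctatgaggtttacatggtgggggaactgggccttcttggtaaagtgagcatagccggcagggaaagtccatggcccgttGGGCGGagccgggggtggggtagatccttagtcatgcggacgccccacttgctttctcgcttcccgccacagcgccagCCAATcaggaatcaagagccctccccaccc
Uhrf1, second start site, chr17:56304063-56304312: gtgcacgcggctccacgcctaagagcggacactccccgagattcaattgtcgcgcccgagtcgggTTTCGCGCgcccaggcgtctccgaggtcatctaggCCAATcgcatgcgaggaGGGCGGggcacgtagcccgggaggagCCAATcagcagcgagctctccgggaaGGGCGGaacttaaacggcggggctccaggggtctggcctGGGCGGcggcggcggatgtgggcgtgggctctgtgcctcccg
Dnmt3b, chr2:153649199-153649448: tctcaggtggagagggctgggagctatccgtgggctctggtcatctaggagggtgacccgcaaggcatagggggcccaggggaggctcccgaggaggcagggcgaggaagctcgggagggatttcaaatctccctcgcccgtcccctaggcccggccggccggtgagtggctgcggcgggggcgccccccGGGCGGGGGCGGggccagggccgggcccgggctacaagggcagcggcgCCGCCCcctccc
The second Uhrf1 window held 30 CpGs, the first 10 and the Dnmt3b window 21, where the median of all 32851 such windows was 6. TTTCGCGC occurred in 0.256% of all windows, and the second Uhrf1 window held 1 copy, starting 185 bases before the start site. Dnmt1, which did not pass the test, also held 1 copy in the window of the third of its start sites, starting 219 bases before it, with 3 copies of CCAAT and 2 of GGGCGG there. CCAAT occurred in 33.8% of all windows, with 2 copies in the second Uhrf1 window, 1 in the first and 0 in that of Dnmt3b. GGGCGG occurred in 32.7% of all windows, with 3 copies each in the second Uhrf1 and the Dnmt3b window and 1 in the first Uhrf1 window. None of the 3 windows held TTTGGCGC, the other E2F form searched, found in 0.417% of windows. The motifs overlapped nowhere in these windows. Counts per gene do not tell which Uhrf1 start site was used. The Tet2 window held the most CpGs of the members, 51, a number reached by 0.0670% of windows.

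Libraries held 60274140 to 74651782 deposited counts, and members had from 190 (Dnmt3b in DMSO library 5) to 35542 counts (Dnmt1 in DMSO library 1). Of all genes tested 16.2% were higher and 7.96% lower with EPZ011989 at an adjusted p under 0.05 (2388 and 1174 genes), and with upper-quartile factors 2735 were higher and 776 lower. Libraries differed in how long transcripts were represented. Relative to each gene's mean over the 9 libraries, the median log2 level of 758 genes with transcripts of at least 8000 bases was 0.53 in EPZ011989 library 2 and -0.29 in EPZ011989 library 4, and it ran from -0.22 in DMSO library 5 to 0.16 in DMSO library 1. Levels are in CPM, each gene's counts scaled to the TMM-adjusted total of its library. The alpha cell marker Gcg, the glucagon gene, was at 18633 ± 2338 CPM (SD, n = 4) with EPZ011989 and 19280 ± 804 CPM (n = 5) in DMSO, and did not pass the test (adjusted p = 0.778, edgeR). Among 12 alpha cell markers, Gcg included, 11 were tested, 2 rose and 0 fell (summed level 20027 to 26667 CPM with EPZ011989, 23810 to 26074 CPM in DMSO). Of 10 fibroblast markers 7 were tested and 6 rose. The 10 together were at 44.3 to 53.6 CPM with EPZ011989 and 8.0 to 10.9 CPM in DMSO. Col3a1, Dcn, Lum and Thy1 were at 0 in every DMSO library. Of 6 endothelial markers 3 were tested and 2 rose (1.84 to 3.29 CPM with EPZ011989, 0.374 to 1.16 CPM in DMSO). Of 8 beta cell markers 4 were tested and 3 rose (44.3 to 56.8 and 38.3 to 43.5 CPM). Ins1, Pdx1 and Ucn3 were at 0 in all 9 libraries. Of 11 ductal and acinar markers 3 were tested, 1 rose and 1 fell (27.7 to 30.9 and 19.08 to 24.9 CPM). Of 7 leukocyte markers 2 passed the filter on low counts and neither was called by edgeR (summed level 2.11 to 2.52 and 1.45 to 1.83 CPM), and Ptprc and Cd3e were at 0 in every DMSO library. Markers that passed the filter only through 1 group had to differ, so no share is drawn from these counts. The part of these markers in the members' results was not tested.

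Maintenance genes came first in level. Uhrf1 (ENSMUSG00000001228, chromosome 17, 56303321 to 56323486, GRCm38, plus strand) was at 231, 204, 213 and 232 CPM in EPZ011989 libraries 1 to 4, against 194, 192, 183, 189.7 and 176 CPM in DMSO libraries 1 to 5. The lowest EPZ011989 library, number 2, lay above the highest DMSO library, number 1. The mean was 220.0 ± 13.6 CPM (SD, n = 4) with EPZ011989 and 187 ± 7 CPM (n = 5) in DMSO, a log2 fold change of 0.24 ± 0.06 (SE, adjusted p = 0.0187, by edgeR's quasi-likelihood test, Benjamini-Hochberg over all tested genes). The call was lost without DMSO library 1, 3, 4 or 5 (adjusted p = 0.0615, 0.0927, 0.0751 and 0.0888) and without EPZ011989 library 1 or 4 (0.130 and 0.0865), while the log2 fold change stayed between 0.19 and 0.26 whichever library was left out. It was 0.26 ± 0.05 without EPZ011989 library 2 (adjusted p = 0.00330, edgeR).

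Dnmt1 (ENSMUSG00000004099, chromosome 9, 20907209 to 20959888, minus strand) was at 457, 372, 406 and 431 CPM in EPZ011989 libraries 1 to 4, against 481, 485, 423, 493 and 426 CPM in DMSO libraries 1 to 5. The groups overlapped, with EPZ011989 library 1 above DMSO libraries 3 and 5. The mean was 416 ± 36 CPM with EPZ011989 and 461 ± 34 CPM in DMSO, and the log2 fold change of -0.15 ± 0.08 (SE, approximate 95% interval -0.31 to 0.01) did not pass (adjusted p = 0.229, edgeR). It kept its sign in all 22 alternative settings, between -0.22 and -0.09, and passed in none. Within each library, where scaling cancels, the level of Uhrf1 per kb of transcript was 0.825, 0.897, 0.862 and 0.882 times that of Dnmt1 in EPZ011989 libraries 1 to 4, against 0.659, 0.648, 0.707, 0.630 and 0.677 times in DMSO libraries 1 to 5. These ratios did not overlap between the groups. They combine members chosen with results known and carry no test. Uhrf1 alone already did not overlap, so they are no separate result. The longest coding transcripts have 3586 bases (Uhrf1) and 5870 bases (Dnmt1), so the length trend need not cancel.

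**Figure D1:**
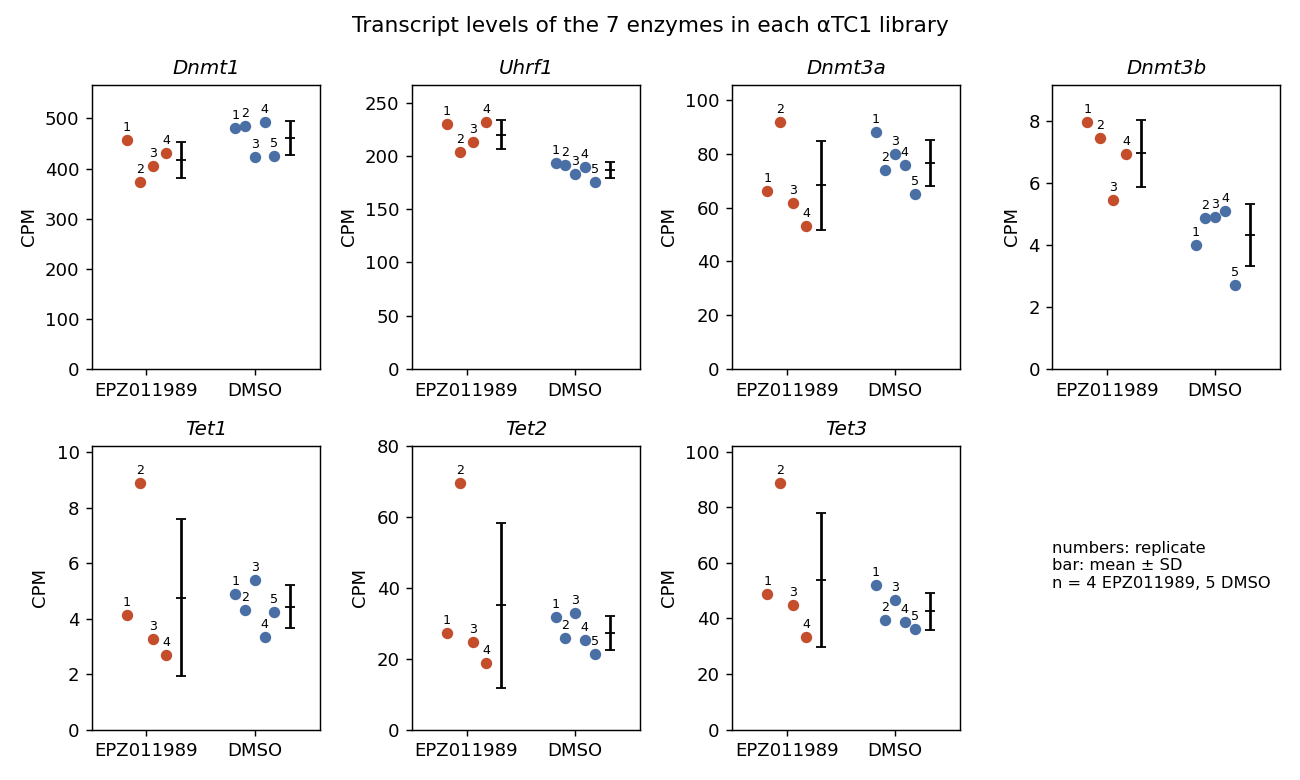
CPM of the 7 members in each library, EPZ011989 (4 libraries) left of DMSO (5 libraries), with replicate numbers over the points and the mean ± SD as a bar. Uhrf1 and Dnmt3b do not overlap between the groups, and EPZ011989 library 2 stands highest for Dnmt3a and the 3 Tet genes.

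Among the genes for new methylation, the scarcer paralog rose. Dnmt3b (ENSMUSG00000027478, chromosome 2, 153649450 to 153687730, plus strand) was at 7.97, 7.46, 5.45 and 6.93 CPM in EPZ011989 libraries 1 to 4, against 3.99, 4.88, 4.90, 5.10 and 2.71 CPM in DMSO libraries 1 to 5. The groups did not overlap, but EPZ011989 library 3 lay close above DMSO library 4. The mean was 6.95 ± 1.09 CPM with EPZ011989 and 4.32 ± 0.99 CPM in DMSO, a log2 fold change of 0.69 ± 0.19 (SE, adjusted p = 0.0226, edgeR). Without DMSO library 1 or EPZ011989 library 1 the call was lost (adjusted p = 0.0579 and 0.0845), with log2 fold changes of 0.64 and 0.59. Without EPZ011989 library 2 it held (0.64 ± 0.21, adjusted p = 0.0309, edgeR).

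Dnmt3a (ENSMUSG00000020661, chromosome 12, 3806007 to 3914443, plus strand), the more abundant enzyme for new methylation, was at 66.1, 91.9, 61.9 and 53.2 CPM in EPZ011989 libraries 1 to 4, against 88.3, 74.2, 80.1, 75.7 and 65.2 CPM in DMSO libraries 1 to 5. EPZ011989 library 2 was the highest of all 9 and library 4 the lowest. With all libraries the log2 fold change of -0.17 ± 0.15 did not pass (approximate 95% interval -0.45 to 0.12, adjusted p = 0.474, edgeR). Without EPZ011989 library 2 Dnmt3a fell, at 60.4 ± 6.5 CPM (n = 3) with EPZ011989 and 76.7 ± 8.5 CPM (n = 5) in DMSO, a log2 fold change of -0.35 ± 0.10 (adjusted p = 0.0200, edgeR), in a fit that called 15.9% of genes lower. With the trend of counts with transcript length removed from every library it also passed (-0.21 ± 0.05, adjusted p = 0.00453, edgeR), in a fit that called 14.2% of genes lower. Without EPZ011989 libraries 2 and 4 together it did not pass (-0.26 ± 0.10, adjusted p = 0.0773, edgeR). An antisense gene, Dnmt3aos, overlaps 133 exonic bases of Dnmt3a, and no source used here says whether counting was stranded, so reads of the pair cannot be told apart there.

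Within each library the level of Dnmt3b per kb was 0.270, 0.182, 0.197 and 0.292 times that of Dnmt3a in EPZ011989 libraries 1 to 4, against 0.101, 0.147, 0.137, 0.151 and 0.0934 times in DMSO libraries 1 to 5. Dnmt3a was thus the larger of the pair in every library, and the ratios did not overlap between the groups. Dnmt3b alone already did not overlap, so this is no separate result. The longest coding transcripts have 4320 bases (Dnmt3b) and 9685 bases (Dnmt3a), so the length trend does not cancel. Among EPZ011989 libraries the ratio was lowest in library 2 and highest in library 4. How many other gene pairs separate was not computed, and the ratio carries no test. Dnmt3l, the catalytically inactive partner of both enzymes in germ cells, had 3 counts in EPZ011989 library 1 and 0 in the other 8 libraries. Fragments added about 4 counts each, so 3 fragments, or 12 counts, set a floor of 0.158 to 0.203 CPM per library, counting error only.

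The Tet genes varied most among the EPZ011989 libraries. Tet2 (ENSMUSG00000040943, chromosome 3, 133463679 to 133545139, minus strand) was at 27.2, 69.7, 24.8 and 18.9 CPM in EPZ011989 libraries 1 to 4, against 31.7, 25.9, 32.8, 25.2 and 21.3 CPM in DMSO libraries 1 to 5. Library 2 alone stood above the DMSO range and library 4 alone below it. The log2 fold change was 0.36 ± 0.33 with all libraries (approximate 95% interval -0.28 to 1.00, adjusted p = 0.496, edgeR) and -0.22 ± 0.16 without EPZ011989 library 2 (adjusted p = 0.297, edgeR), so the sign turned and neither fit passed. Tet2 shares 43 exonic bases with a gene model on the other strand, Gm42567.

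Tet3 (ENSMUSG00000034832, chromosome 6, 83362373 to 83459084, minus strand) was at 48.7, 88.8, 44.9 and 33.5 CPM in EPZ011989 libraries 1 to 4, against 52.2, 39.5, 46.7, 38.7 and 36.1 CPM in DMSO libraries 1 to 5. Its high library was again number 2, and libraries 1 and 3 lay within the DMSO range. The log2 fold change was 0.34 ± 0.24 with all libraries (approximate 95% interval -0.13 to 0.81, adjusted p = 0.358, edgeR) and -0.02 ± 0.14 without EPZ011989 library 2 (adjusted p = 0.937, edgeR).

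Tet1 (ENSMUSG00000047146, chromosome 10, 62804570 to 62908996, minus strand), the Tet enzyme best known from embryonic stem cells, was at 4.14, 8.91, 3.27 and 2.71 CPM in EPZ011989 libraries 1 to 4, against 4.89, 4.32, 5.41, 3.34 and 4.24 CPM in DMSO libraries 1 to 5. Library 2 was the highest of all 9, and the other 3 EPZ011989 libraries were in the lower part of the DMSO range or below it. The log2 fold change was 0.10 ± 0.31 with all libraries (approximate 95% interval -0.52 to 0.71, adjusted p = 0.872, edgeR), and without EPZ011989 library 2 it was -0.41 ± 0.19 (adjusted p = 0.122, edgeR). In 8 of 22 alternative settings its sign was negative. The intervals of all 3 Tet genes with all libraries include a change as large as the rise of Uhrf1, so the data do not show that they were unaltered.

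**Figure D2:**
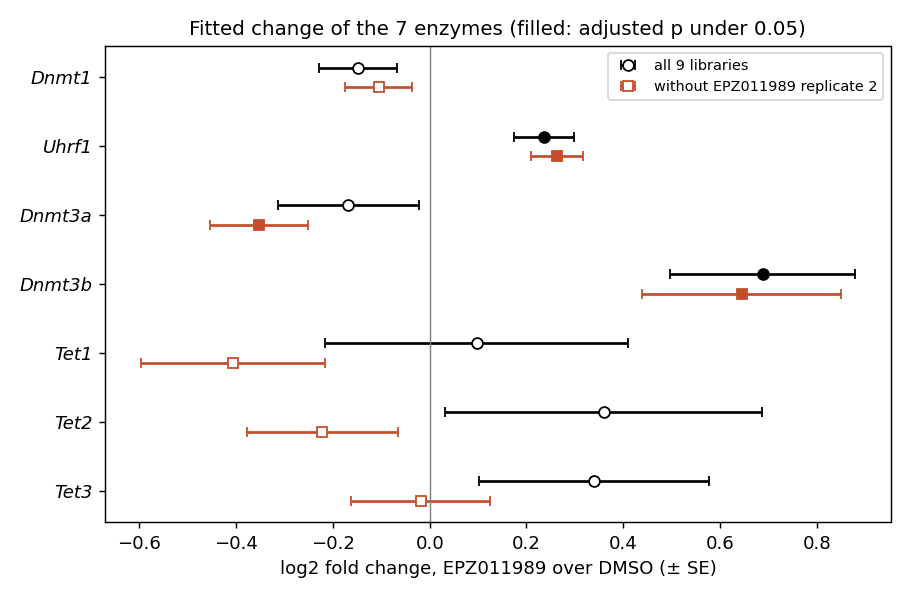
Log2 fold change ± SE of EPZ011989 over DMSO for each member, with all 9 libraries (circles) and without EPZ011989 library 2 (squares), filled where the adjusted p was under 0.05. Uhrf1 and Dnmt3b are filled in both fits, Dnmt3a only without library 2, and the Tet genes shift to the left without it.

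EPZ011989 library 2 was set against the other 3 EPZ011989 libraries, beside genes of like transcript length. Among 752 genes with transcripts of at least 8000 bases and a count in every EPZ011989 library, the median ratio of library 2 to the mean of the others was 1.504, and for genes under 1500 bases it was 0.799. Dnmt3a, with a longest coding transcript of 9685 bases, had a ratio of 1.52, which 48.1% of the long genes reached. Tet2 (9179 bases) had a ratio of 2.95, reached by 5.05% of the long genes, Tet1 (14369 bases) a ratio of 2.64, reached by 5.85%, and Tet3 (10904 bases) a ratio of 2.10, reached by 15.3%. Uhrf1 (3586 bases), Dnmt3b (4320 bases) and Dnmt1 (5870 bases) had ratios of 0.905, 1.10 and 0.863.

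Library 4 mirrored this. Its median ratio to the mean of the other 3 was 0.724 for the long genes and 1.23 for those under 1500 bases. Tet2, Tet1 and Tet3 were at 0.467, 0.498 and 0.550 times the mean of the other libraries, and Dnmt3a at 0.727 times. With the length trend removed, the log2 fold change was 0.23 ± 0.19 for Tet2, -0.06 ± 0.17 for Tet1 and 0.25 ± 0.09 for Tet3 (adjusted p = 0.390, 0.836 and 0.0641, edgeR). Uhrf1 (0.22 ± 0.07, adjusted p = 0.0215) and Dnmt3b (0.66 ± 0.18, adjusted p = 0.0148) passed there too. Without libraries 2 and 4 together Uhrf1 passed (adjusted p = 0.00992, edgeR) and Dnmt3b did not (0.0703).

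**Figure D3:**
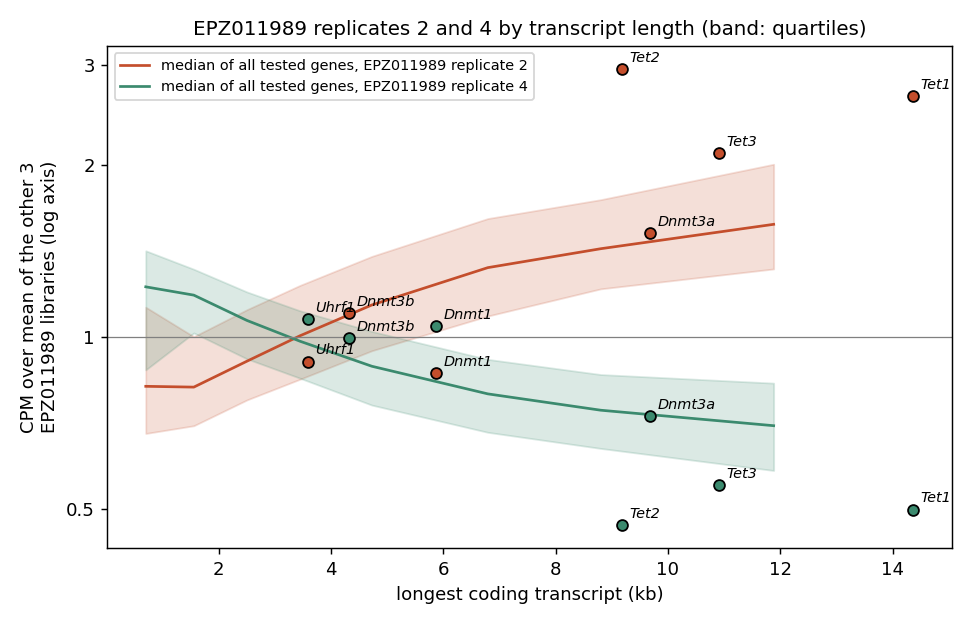
Level in EPZ011989 library 2 (red) and library 4 (green) over the mean of the other 3 EPZ011989 libraries, on a log axis, against the longest coding transcript in kb. Lines and bands give the median and quartiles of tested genes in bins of length, and points the members. Dnmt3a lies near the line in both libraries, while Tet2 and Tet3 lie outside the band and Tet1, longer than the bins' last median, lies at 2.64 and 0.498.

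Levels of different genes were compared per kb of the longest coding transcript. In order, means with EPZ011989 and in DMSO were 70.9 ± 6.2 and 78.6 ± 5.8 CPM per kb for Dnmt1, 61.4 ± 3.8 and 52.1 ± 2.0 for Uhrf1, 7.05 ± 1.72 and 7.92 ± 0.87 for Dnmt3a, and 4.95 ± 2.21 and 3.91 ± 0.61 for Tet3. They were 3.83 ± 2.54 and 2.98 ± 0.52 CPM per kb for Tet2, 1.61 ± 0.25 and 0.999 ± 0.230 for Dnmt3b, and 0.331 ± 0.197 and 0.309 ± 0.054 for Tet1 (SD, n = 4 and n = 5). By this length the order held within each of the 9 libraries. Across libraries the ranges of the neighbours Tet3 and Tet2 overlapped in both groups. Those of Dnmt1 and Uhrf1 and of Dnmt3a and Tet3 overlapped among the EPZ011989 libraries and not among the DMSO libraries, a difference that was not tested. Dnmt1 and Uhrf1 together thus held most of the 7 genes' summed level, with Dnmt1 at 47.2% with EPZ011989 and 53.5% in DMSO, and Uhrf1 at 40.9% and 35.5%. The 3 Tet genes summed to 0.0891, 0.219, 0.0918 and 0.0661 times the 3 methyltransferase genes in EPZ011989 libraries 1 to 4, against 0.0932, 0.0738, 0.101, 0.0703 and 0.0742 times in DMSO libraries 1 to 5. That ratio overlapped between the groups apart from EPZ011989 library 2 above and library 4 below. The isoforms in use are not known, and dividing by the union of all exons gave lower levels, listed in the closing section. In EPZ011989 library 4 Tet2 had 18.9 CPM over a union of 16870 bases and Dnmt3b 6.93 CPM over 5106 bases. The union thus placed Dnmt3b above Tet2 in that library.

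**Figure D4:**
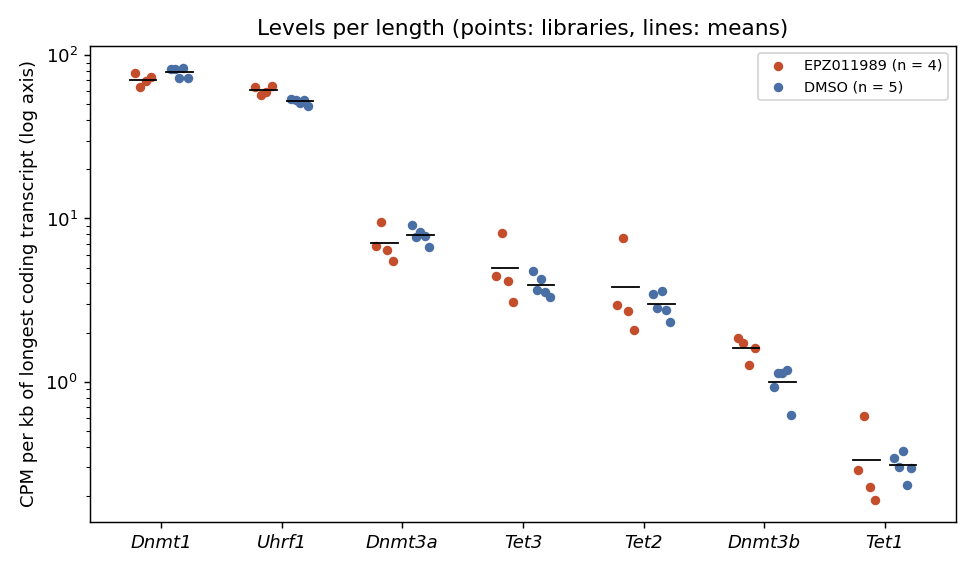
Level of each member in CPM per kb of its longest coding transcript, on a log axis, with EPZ011989 left of DMSO for each gene, a point per library and a line at the mean. Dnmt1 and Uhrf1 lie between 49.1 and 84.0 CPM per kb in DMSO, and Tet1 lies lowest.

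Members fell into sets that varied together over the 9 libraries, given here as a description in which treatment, depth and the length trend are shared. Pearson's r of log2(CPM + 0.5) was 0.971 between Tet2 and Tet3, 0.931 between Tet1 and Tet2, 0.879 between Tet1 and Tet3, and 0.724 to 0.822 between Dnmt3a and each Tet gene. It was 0.818 between Uhrf1 and Dnmt3b and -0.157 between Uhrf1 and Dnmt1. Without EPZ011989 library 2, a setting chosen after the values were seen, r was 0.879 between Tet2 and Tet3, 0.806 between Tet1 and Tet2, 0.628 between Tet1 and Tet3, 0.636 to 0.865 between Dnmt3a and each Tet gene, 0.868 between Uhrf1 and Dnmt3b and -0.156 between Uhrf1 and Dnmt1. Among 9757 other named genes averaging 5 CPM or more, those among the most like each member over the 9 libraries were Sf3b3 and Chd4 for Dnmt1 (r = 0.974 and 0.961), Mast2 for Uhrf1 (0.972), and Ppp1r12b and Vps13b for Dnmt3a (0.996 and 0.995). They were Ccrn4l and Phf21a for Dnmt3b (r = 0.947 and 0.946), Zranb2 and Papolg for Tet1 (0.986 and 0.986), Appl1 and Zfp644 for Tet2 (0.998 and 0.996), and Amer1 and Serac1 for Tet3 (0.994 and 0.993). The number of genes with r of at least 0.95 was 424 for Dnmt3a, 191 for Tet2, 176 for Tet3, 64 for Tet1, 19 for Uhrf1, 2 for Dnmt1 and 0 for Dnmt3b. The correlations of members with these most alike genes were 0.938 to 0.997 without EPZ011989 library 2.

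Partners of the methyltransferases stayed mostly below the threshold. Of 20 listed genes 17 were tested, 0 rose and 2 fell, where 16.2% of all tested genes were higher and 7.96% lower. The median log2 fold change was -0.06, against 0.03 over all tested genes. No member of this list was higher by unadjusted p, DESeq2 or limma-voom either. Cdca7l, a paralog of the HELLS activator CDCA7, fell to 81.9 ± 4.6 CPM with EPZ011989, against 101 ± 3 CPM in DMSO (adjusted p = 0.00369, edgeR). Setdb1, a histone H3 lysine 9 methyltransferase, fell to 74.8 ± 7.3 CPM, against 95.6 ± 6.8 CPM (adjusted p = 0.00980, edgeR). Uhrf2, the paralog of Uhrf1, was at 80.5 ± 13.4 CPM with EPZ011989 and 85.7 ± 2.7 CPM in DMSO, Hells, a chromatin remodeller needed for methylation of repeats, at 150.0 ± 55.6 and 156 ± 12 CPM, and Cdca7 at 51.4 ± 3.1 and 49.4 ± 3.5 CPM, and these 3 did not pass. Without EPZ011989 library 2, 6 partners were lower and 1 higher, and both Uhrf2 (log2 fold change -0.22, adjusted p = 0.00717, edgeR) and Hells (-0.36, adjusted p = 0.00561) were among the lower ones, in a fit that called 15.9% of all genes lower and 19.7% higher. Exons of Cdca7l and Setdb1, like those of Gadd45a, Apobec3, Tdg, Mbd4 and Zcwpw1 below, overlap other gene models, so their counts are uncertain to that extent.

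Readers of methylated or unmethylated CpGs, among them the MBD and CXXC genes, had 0 of 15 called in either direction, where 24.1% of all tested genes were called, at a median log2 fold change of -0.01. The count was also 0 at an unadjusted p under 0.05 and with DESeq2 and limma-voom. Without EPZ011989 library 2 it was 1 higher and 2 lower, where 35.6% of all genes were called.

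Of 20 genes of active demethylation and base excision 18 were tested, 5 rose and 1 fell (median log2 fold change -0.05), where 16.2% of all tested genes were higher and 7.96% lower. Gadd45b, a stress-induced protein linked to demethylation, rose to 10.03 ± 0.82 CPM with EPZ011989, against 5.55 ± 1.44 CPM in DMSO (adjusted p = 0.00379, edgeR), and Gadd45a to 258 ± 41 CPM, against 179 ± 13 CPM (adjusted p = 0.00390). The cytidine deaminase gene Apobec3, whose exons overlap those of a neighbour, rose to 5.09 ± 0.53 CPM, against 2.95 ± 0.54 CPM (adjusted p = 0.00382). Named after its values were seen, Apobec1, which edits RNA, rose to 2.16 ± 0.52 CPM with EPZ011989, against 1.13 ± 0.38 CPM in DMSO (adjusted p = 0.0375, edgeR). The Apobec1 call was lost without DMSO library 2, 4 or 5 or EPZ011989 library 1 or 3 (adjusted p = 0.0619 to 0.120). Parp1, which signals DNA breaks during repair, fell to 385 ± 42 CPM, against 467 ± 16 CPM (adjusted p = 0.0282, edgeR), a call lost without any 1 DMSO library (adjusted p = 0.0501 to 0.0752) and without EPZ011989 library 3 (0.0595). Tdg, the glycosylase that removes the oxidised bases made by TET enzymes, was at 15.3 ± 3.7 and 16.3 ± 1.4 CPM, and Mbd4, another glycosylase, at 19.3 ± 4.5 and 16.4 ± 2.1 CPM, and neither passed. The count of higher genes was 3 without DMSO library 2, 4 or 5 or EPZ011989 library 3, and the count of lower genes 3 without EPZ011989 library 2.

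Among genes that supply or remove the cofactors more fell than rose. Of 21 genes of S-adenosylmethionine and 2-oxoglutarate metabolism 20 were tested, 8 fell and 1 rose, with a median log2 fold change of -0.20, against 7.96% lower and 16.2% higher among all tested genes. Idh3a and Idh3b, subunits of the NAD-dependent isocitrate dehydrogenase that makes 2-oxoglutarate, fell to 207 ± 9 and 185 ± 14 CPM with EPZ011989, against 260.4 ± 3.2 and 241 ± 11 CPM in DMSO (adjusted p = 0.00126 and 0.00191, edgeR). D2hgdh, which clears the TET inhibitor D-2-hydroxyglutarate, fell to 36.6 ± 1.1 CPM, against 44.6 ± 2.6 CPM (adjusted p = 0.0100), and Sdha of succinate dehydrogenase to 326 ± 11 CPM, against 382 ± 14 CPM (adjusted p = 0.0150). Idh1, the cytosolic isocitrate dehydrogenase and named after its value was seen, rose to 76.2 ± 10.3 CPM, against 62.2 ± 1.6 CPM (adjusted p = 0.0314, edgeR), a call lost when any 1 library other than EPZ011989 library 2 or 4 was left out (adjusted p = 0.0563 to 0.0804). The count of lower genes was 5 without DMSO library 2 or 5 or EPZ011989 library 1 and 4 without EPZ011989 library 3.

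Of 24 germline genes, many of them kept silent in somatic cells by promoter methylation, 5 passed the filter and 2 rose. Zcwpw1, a histone methylation reader of meiosis, rose to 51.5 ± 5.6 CPM with EPZ011989, against 25.4 ± 2.6 CPM in DMSO (adjusted p = 3.11e-05, edgeR; log2 fold change 1.02 ± 0.10 SE), and Rhox5, an X-linked homeobox gene, to 17.4 ± 2.7 CPM, against 11.8 ± 1.5 CPM (adjusted p = 0.00923). Both stood above the floor of 0.158 to 0.203 CPM in DMSO, so neither was silent there. Genes that passed the filter only through 1 group had to differ, so no share is drawn from this list. Replication and mitosis genes were read beside Uhrf1 and Dnmt1, whose transcripts peak in dividing cells. Of 25 tested, 0 rose and 1 fell, where 16.2% of all tested genes were higher and 7.96% lower. Their median log2 fold change was 0.03, and 3 were higher at an unadjusted p under 0.05, 1 with DESeq2 and 0 with limma-voom. The gene that fell was Rrm1, a subunit of ribonucleotide reductase, at 387 ± 30 CPM with EPZ011989 and 447 ± 12 CPM in DMSO (adjusted p = 0.0440, edgeR), a call lost without DMSO library 1, 2, 3 or 4 or EPZ011989 library 1, 3 or 4 (adjusted p = 0.0566 to 0.131). Without EPZ011989 library 2, 4 of the 25 were higher, where 19.7% of all genes were.

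**Figure D5:**
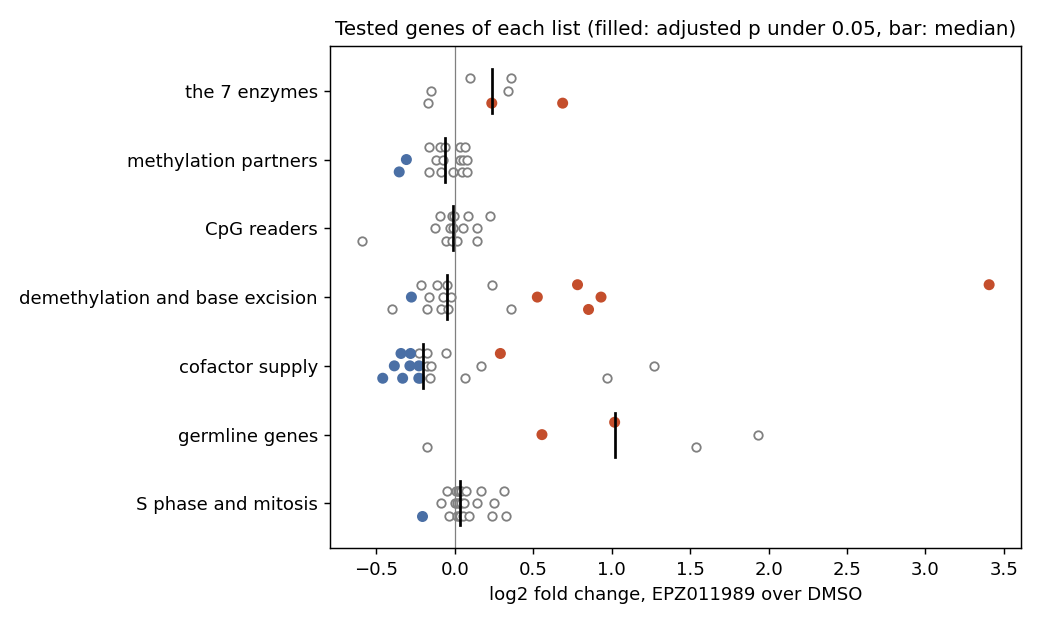
Log2 fold change of EPZ011989 over DMSO for each tested gene of the 7 members and 6 related lists, filled where the adjusted p was under 0.05, with a bar at each list's median. Cofactor supply genes lie mostly to the left of 0, and no CpG reader is filled.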

How the data were processed

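RNA was sequenced from 9 libraries, and the submitters' processing notes name HISAT2, StringTie and DESeq2 and the build mm10, without roles or versions. Raw counts per gene were deposited by the authors for 33212 rows. A second deposited table, treated as a signal unit, holds normalized counts, of which 100% equalled the count divided by 1 factor per library (relative tolerance 1e-04, 20590 symbols). Low counts step by about 4, so each fragment appears to add about 4 counts and counts overstate independent fragments. With counts divided by 4, no 2 libraries of a group agreed within sampling noise (chi-square per degree of freedom at least 4.03, where sampling noise gives about 1).

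Counts were filtered (filterByExpr), TMM-scaled and tested with edgeR 4.0.16 in R 4.3.3 by the quasi-likelihood test for treatment alone, with Benjamini-Hochberg adjustment over 14754 genes at 0.05. SE is the log2 fold change over the square root of F. Positions and lengths are from GENCODE M21 (GRCm38). The fit was checked on simulated counts. Alternatives were other scaling, filters, DESeq2 1.42.0, limma 3.58.1, a replicate block, removal of the length trend and leaving out libraries. Named list genes were up to 4 called genes by smallest p and 6 set partners, and some genes that the rules chose are not reported here. Members and lists were chosen with earlier results of these data known.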

Additional observations from a re-analysis of the deposited data

Results flagged for a closer look

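In 61 groups of libraries examined for a value far from the others, 3 stood apart by Dixon's criterion, where chance flags about 1 in 20 groups. Tet2 in EPZ011989 library 2 was at 69.7 CPM, against 18.9 to 27.2 CPM in the other 3 EPZ011989 libraries. Uhrf2 in the same library was at 100.7 CPM, against 73.7 to 73.9 CPM in the others. Long transcripts were high in that library. The longest coding transcript of Uhrf2 has 3536 bases and the union of its exons 8590, and the isoforms in use are not known. Genes in the length bin of that coding transcript had a median of 3447.5 bases. Their median ratio of library 2 to the mean of the other 3 EPZ011989 libraries was 1.0045. The part of transcript length in the Uhrf2 value was not tested. Dnmt3l in EPZ011989 library 1 was at 0.0398 CPM, with 0 in the others, and rests on 3 counts, below the floor of 12.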

How the results depend on the processing

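Across 22 alternatives Dnmt1, Dnmt3a, Dnmt3b and Uhrf1 kept their direction, with log2 fold changes of -0.22 to -0.09, -0.35 to -0.09, 0.53 to 0.79 and 0.19 to 0.29. Leaving out 1 library each gave 0.54 to 0.79 for Dnmt3b, 0.19 to 0.26 for Uhrf1, -0.35 to -0.090 for Dnmt3a, -0.41 to 0.26 for Tet1, -0.22 to 0.53 for Tet2 and -0.019 to 0.48 for Tet3, and 1861 to 2939 genes higher and 781 to 2377 lower. It gave 0 to 2 members higher and 0 to 1 lower, 0 to 1 partners higher and 2 to 6 lower, 0 to 1 readers higher and 0 to 2 lower, 3 to 6 demethylation genes higher and 0 to 3 lower, 0 to 1 cofactor genes higher and 4 to 11 lower, and 0 to 4 replication genes higher and 0 to 1 lower. Tet1 was also negative with limma-voom (-0.063), limma on log2(normalized + 1) (-0.056) and + 10 (-0.052), the trend of length removed (-0.059), without DMSO library 4 (-0.02), and without EPZ011989 libraries 2 and 4 together (-0.26), where Tet2 was at -0.078. Leaving out 1 library each also gave -0.24 to 0.032 for Tdg, -0.36 to 0.029 for Hells and -0.13 to 0.025 for Gcg, and Gcg was at 0.0054 with upper-quartile factors. The cause was not tested.

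Same-numbered libraries of the groups did not vary together (r of deviations 0.0146, -0.0985, -0.0441 and 0.0302). The labels give no pairing, and these r over all genes cannot tell whether same-numbered libraries shared a culture or a day. The replicate block also left out DMSO library 5, which has no same-numbered EPZ011989 library, so that setting changed both. With it 1525 genes were higher and 527 lower, with 0 members higher (Dnmt3b 0.53, adjusted p = 0.0893, Uhrf1 0.19, adjusted p = 0.191, Tet1 -0.078, edgeR). There 1 partner was lower, 3 demethylation genes were higher and 0 lower, 0 cofactor genes higher and 3 lower, and 0 replication genes lower.

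Upper-quartile factors gave 776 genes lower, 2 cofactor genes higher and 4 lower, 2 replication genes higher and 0 lower, and 0 demethylation genes lower. Library size alone gave 5 cofactor genes lower, and 3 replication genes higher and 0 lower. No filter gave 2 cofactor genes higher and 0 replication genes lower, and DESeq2 gave 2 cofactor and 1 replication gene higher. Removing the length trend gave 2074 genes lower, 1 member lower (Dnmt3a, -0.21), 14 cofactor genes lower, 2 demethylation genes lower and 2 replication genes higher. Without EPZ011989 libraries 2 and 4 together 1 member (Dnmt3b at 0.64 did not pass), 1 reader, 2 cofactor and 3 replication genes were higher, and 5 partners and 2 demethylation genes lower. Dividing by the union of all exons gave, with EPZ011989 and in DMSO, 56.5 and 62.6 CPM per kb for Dnmt1, 4.10 and 4.61 for Dnmt3a, 51.7 and 43.9 for Uhrf1, 1.36 and 0.845 for Dnmt3b, 2.08 and 1.62 for Tet2, 3.23 and 2.55 for Tet3, and 0.308 and 0.287 for Tet1. For the named genes other than members and for the correlations, 468 values under alternatives kept direction and call, 46 lost the call, 4 gained it, 5 turned sign and 2 correlations moved by 0.1 or more. Depth limits statements on genes under the floor, such as Dnmt3l.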
